A study of Mus musculus with 12 samples.

Results

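The genes described here are 40 markers of endothelial identity, of which 38 were measured among the 24011 genes tested in liver sinusoidal endothelial cells (LSECs). They were taken as a fixed list of gene symbols, chosen with earlier results of these data known. The list holds 9 genes of sinusoidal identity, all measured, and 31 genes of other endothelium, of which 29 were measured: pan-endothelial, capillary and large-vessel genes and genes of the basement membrane. Ly6a and Bgn2 matched no symbol of the array annotation and are not analysed here, and Gpr126 was found under its current symbol Adgrg6.

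The 12 Affymetrix arrays compared 4 genotypes on the C57BL/6J strain: wild type (WT), mice lacking Stab1 (Stab1KO), mice lacking Stab2 (Stab2KO) and mice lacking both genes (DKO). The stabilins these genes encode are scavenger receptors that LSECs use to take up ligands from the blood. Each genotype had 3 arrays, each array held RNA of 3 pooled mice aged 3 to 4 months, and the cells were taken from perfused livers with CD146 beads without culture. CD146 is carried by endothelial cells in general, so the beads do not select sinusoidal over other endothelium. The labels do not say whether the knockouts were compared with littermates, or how the alleles were made.

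LSECs differ from the continuous endothelium of most other vessels. They are pierced by open fenestrae, lie on little or no organised basement membrane, and clear waste from the blood through scavenger receptors and rapid endocytosis. When sinusoids are remodelled in liver disease, LSECs can lose these features and take on genes of continuous capillaries, a change called capillarization, so the 2 groups of markers are commonly read side by side.

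The targeted genes matched the genotype labels of all arrays. The Stab1 level was 12.54 ± 0.08 log2 in WT and 5.31 ± 0.14 in Stab1KO, and the Stab2 level was 13.05 ± 0.05 in WT and 6.81 ± 0.57 in Stab2KO (mean ± SD, n = 3 pools). In DKO they measured 5.23 ± 0.23 and 6.65 ± 1.09. Of the other defining markers of LSECs, Lyve1 lay between 12.39 and 13.09 over all arrays, Clec4g between 13.44 and 13.79, Fcgr2b between 13.38 and 13.60 and Kdr between 13.23 and 13.54. These genes were high in all 4 genotypes. In DKO, Flt4, also on that list, lay below all WT arrays (-0.40, or -0.24 without DKO replicate 3), as did Clec4g (-0.22) and Kdr (-0.16). Lyve1 lay above them (0.25), and Fcgr2b (-0.07) and Pecam1 (-0.07) overlapped WT. None of these differences had an adjusted p under 0.05. One array stood apart. The correlation of DKO replicate 3 with the other arrays across genes was 0.956 to 0.968, and 12 neutrophil markers there averaged 5.27 log2 above their mean over all arrays, where the other 11 arrays gave -0.97 to 0.18. DKO replicates 1 and 2 gave -0.17 and 0.18, above the WT arrays at -0.97 to -0.60. Without DKO replicate 3, the median difference of these markers between DKO and WT was 0.85, with 0 of 12 below WT and 0 called. DKO replicate 3 was also the lowest of the 12 arrays for 22 of the 38 markers, 7 of 9 sinusoidal and 15 of 29 others, and its 8 pan-endothelial reference genes averaged 0.44 log2 below the mean of all arrays. Results on DKO whose call, sign or size rests on it are therefore also given without it. The part of the neutrophil signal in them was not tested. In RNA from whole pools, fewer cells of a type and less RNA per cell cannot be told apart.

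Promoter sequence was looked up for the called markers Fam167b, Gja5, Fbln2 and Slco2a1, chosen after their values were seen, and 2 are printed. These are Fam167b, the sinusoidal marker that fell in DKO against all 3 other genotypes, and Gja5, which rose in both genotypes without Stab2. RefSeq's promoter table for GRCm38.p6 held 27 of the 38 measured markers. For Fam167b and Gja5 the 250 bases before the start site are printed 5′ to 3′ on the gene's strand. The Fam167b window lies at chr4:129578581-129578830 on the minus strand and the Gja5 window at chr3:97032152-97032401 on the plus strand. Capitals mark a match to an ETS motif, the site type bound by a large family of transcription factors, of which only some are endothelial.
Fam167b: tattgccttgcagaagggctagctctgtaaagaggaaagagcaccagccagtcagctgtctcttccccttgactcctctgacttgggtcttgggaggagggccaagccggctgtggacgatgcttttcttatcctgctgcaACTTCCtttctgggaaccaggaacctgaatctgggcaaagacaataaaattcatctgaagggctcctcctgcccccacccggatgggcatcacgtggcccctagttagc
Gja5: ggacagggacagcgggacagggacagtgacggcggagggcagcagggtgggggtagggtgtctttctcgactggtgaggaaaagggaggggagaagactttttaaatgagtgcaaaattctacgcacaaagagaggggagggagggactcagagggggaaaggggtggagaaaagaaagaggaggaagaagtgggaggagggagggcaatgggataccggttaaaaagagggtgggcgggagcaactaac

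The windows were searched on both strands for 4 motifs, each counted separately, so matches of different motifs may overlap. The ETS motif GGAAGT was found in 6 of the 27 promoters and in 19.7% of all 32851 promoters of that length. In Fam167b it read ACTTCC on the gene's strand, 109 bases before the start. The GATA motif AGATAA was found in 2 of 27, beside 9.99% of all promoters, the RBPJ motif GTGGGAA of Notch signalling in 1 of 27, beside 5.42%, and the BMP SMAD motif GGCGCC in 4 of 27, beside 9.59%. The Gja5, Fbln2 and Slco2a1 windows held none of these letters. These matches are descriptions of sequence and not binding sites.

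No sinusoidal marker passed the test when 1 receptor alone was missing. None was called in Stab1KO against WT, where 0 of all 38 markers passed an adjusted p under 0.05 (3 had an unadjusted p under 0.05) and 0.308% of all genes passed. None was called in Stab2KO against WT either, where 1 of 38 markers passed and 0.296% of all genes did. The median log2 difference of the 9 was -0.03 in Stab1KO and -0.01 in Stab2KO, beside medians over all genes of 0.005 and 0.007. In DKO against WT, 6 of 38 markers were called, 15.8%, where 1.80% of all genes were, and 1 of these 6, Fam167b, was sinusoidal. Without DKO replicate 3, 3 of 38 were called, 7.89%, where 1.77% of all genes were. Because the list was chosen with earlier results known, these shares are not a test of the list. The comparisons against WT share the 3 WT arrays. Scaling to 8 pan-endothelial genes, Pecam1 and Tie1 among them, kept the calls of Fam167b (-0.45), Gja5 (0.81) and Fbln2 (1.57) in DKO against WT and added Adgrg6 (1.36) and Efnb1 (0.46, adjusted p = 0.039). It ended those of Lamb1 at a similar size (-1.30, adjusted p = 0.053), Slco2a1 (-0.48, adjusted p = 0.071) and Nid2 (-0.34, adjusted p = 0.19).

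**Figure D1:**
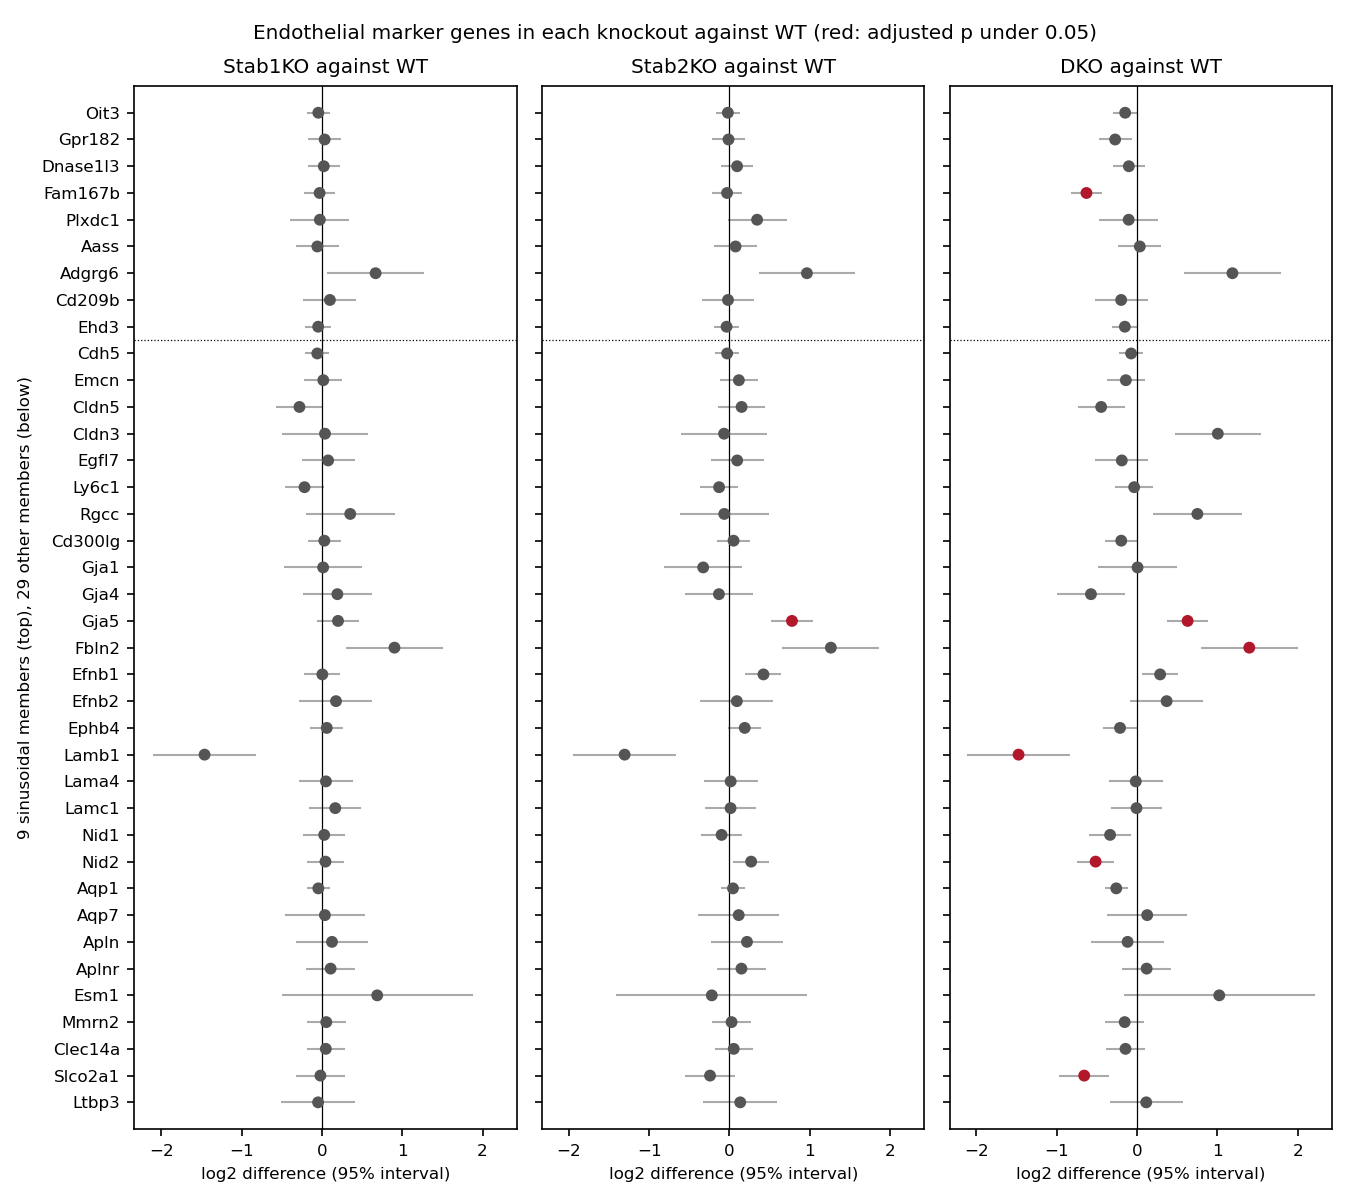
Log2 difference of each of the 38 markers from WT in Stab1KO, Stab2KO and DKO, with the 95% interval from the fit; red points have an adjusted p under 0.05. No marker is red in Stab1KO, Gja5 is red in Stab2KO, and 6 are red in DKO, of which Fam167b lies among the 9 sinusoidal markers at the top.

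Fam167b measured 11.49, 11.35 and 11.45 log2 in WT replicates 1 to 3, 11.31, 11.41 and 11.48 in Stab1KO, 11.43, 11.43 and 11.34 in Stab2KO, and 10.94, 10.81 and 10.65 in DKO. All 3 DKO arrays lay below every one of the other 9. Fam167b fell in DKO to 64.6% of WT (log2 difference -0.63 ± 0.09 SE, 95% interval -0.82 to -0.44, adjusted p = 0.0057). It differed from WT by -0.03 ± 0.09 in each single knockout. It also fell in DKO against Stab1KO (-0.60 ± 0.09, adjusted p = 0.016) and against Stab2KO (-0.60 ± 0.09, adjusted p = 0.012). The departure from additivity, the DKO difference beyond the sum of the single differences, was -0.57 ± 0.12 and was not called (adjusted p = 0.11). Without DKO replicate 3 the difference from WT was -0.55 (adjusted p = 0.011), and the call against WT held with any one array left out. The calls against the single knockouts were each lost with 2 arrays, against Stab1KO without Stab1KO replicate 2 or 3 (-0.60 to -0.56, adjusted p 0.074 to 0.075) and against Stab2KO without Stab2KO replicate 1 or 2 (-0.58 in each, adjusted p 0.054 to 0.058). Scaling to 8 pan-endothelial genes ended both, at -0.38 (adjusted p = 0.068) and -0.34 (adjusted p = 0.066).

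Adgrg6, an adhesion G protein-coupled receptor that binds collagen IV, was the sinusoidal marker with the largest difference in DKO, and it lay above WT. It measured 9.96, 8.88 and 9.17 in WT, 10.34, 9.91 and 9.76 in Stab1KO, 10.21, 10.21 and 10.48 in Stab2KO, and 10.86, 10.60 and 10.12 in DKO. WT replicate 1 stood higher than the other WT pools and overlapped Stab1KO, while all Stab2KO and DKO arrays lay above all WT arrays. The differences from WT were 0.67 ± 0.27 in Stab1KO (adjusted p = 1), 0.96 ± 0.27 in Stab2KO (adjusted p = 0.34) and 1.19 ± 0.27 in DKO (adjusted p = 0.057), none of them called. The last passed without DKO replicate 3 (1.39, adjusted p = 0.037) and without WT replicate 1 (1.499, adjusted p = 0.018).

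The other 7 sinusoidal markers were not called in any of the 7 contrasts. Gpr182, an atypical chemokine receptor of LSECs, measured 12.94, 13.04 and 13.04 in WT and 12.84, 12.83 and 12.53 in DKO. Its DKO arrays all lay below WT, with a difference of -0.27 ± 0.09 (adjusted p = 0.17). Oit3, a secreted protein used to mark LSECs, measured 13.59, 13.63 and 13.57 in WT and 13.48, 13.44 and 13.42 in DKO, again without overlap, a difference of -0.15 ± 0.07 (adjusted p = 0.30). Cd209b, a C-type lectin that binds microbial sugars, differed by -0.20 ± 0.15 and Ehd3, an ATPase of endocytic recycling, by -0.15 ± 0.07. Dnase1l3, a secreted nuclease that digests extracellular chromatin, differed by -0.10 ± 0.09, the transmembrane protein gene Plxdc1 by -0.10 ± 0.17, and Aass, which encodes an enzyme of lysine breakdown, by 0.03 ± 0.12. Without DKO replicate 3, the differences were -0.17 for Gpr182, -0.14 for Oit3, -0.13 for Cd209b, -0.09 for Ehd3, -0.02 for Dnase1l3, 0.08 for Plxdc1 and 0.15 for Aass, none called. Ehd3 and Oit3 lay near the top of the deposited scale, whose highest value was 13.9. The median of the 9 in DKO was -0.15, -0.09 without DKO replicate 3, beside -0.02 over all genes. When the arrays were scaled to 8 pan-endothelial genes the median turned to 0.03, beside a shift of all genes to 0.15, so its sign rested on the scaling. Among the DKO arrays the scaling moved mainly replicate 3, whose offset was -0.44, beside -0.03 in replicates 1 and 2.

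**Figure D2:**
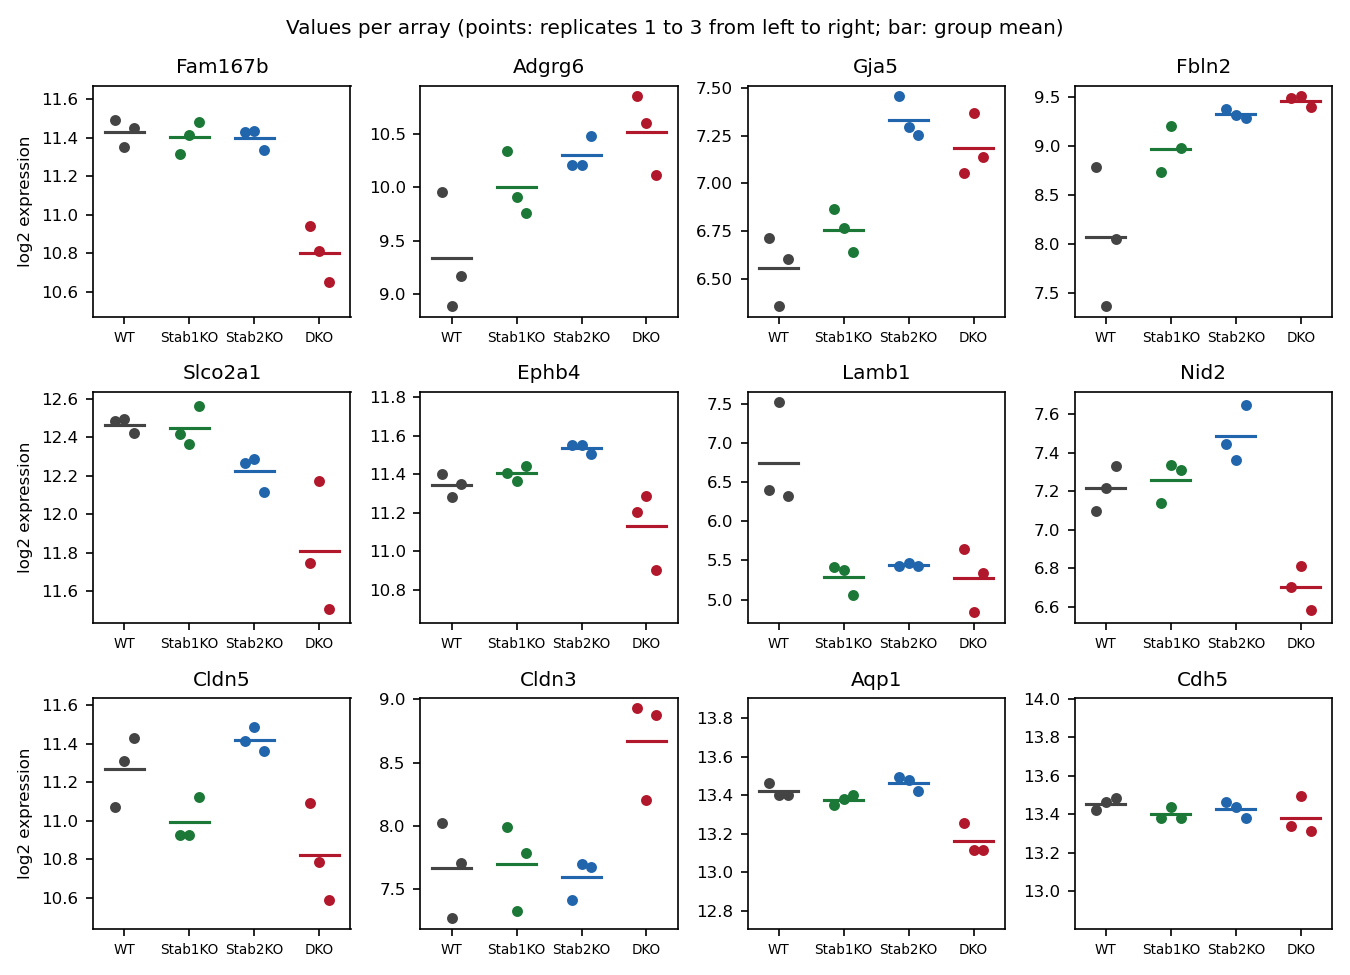
Log2 expression of 12 of the markers in each array, with points for replicates 1 to 3 of each genotype and a bar at the mean of 3 pools. Fam167b is lower in all DKO arrays, Gja5 is higher in all Stab2KO and DKO arrays, and Cdh5, which encodes VE-cadherin, overlaps between all 4 genotypes.

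Among the 7 pan-endothelial markers none was called against WT (in DKO 2 had an unadjusted p under 0.05), and the median in DKO was -0.14, which was -0.01 without DKO replicate 3 and 0.03 when scaled to 8 pan-endothelial genes. The scaling genes are other genes of the same kind, so the scaled median is no separate evidence on this group. Cdh5, the adhesion molecule VE-cadherin of all endothelial junctions, differed from WT by -0.06 ± 0.07 in Stab1KO, -0.03 ± 0.07 in Stab2KO and -0.07 ± 0.07 in DKO. The intervals of these 3 differences all lay between -0.23 and 0.12. Emcn, Egfl7, Mmrn2 and Clec14a, surface and secreted proteins of endothelium, differed from WT in DKO by -0.19 to -0.14, and by 0.02 to 0.12 in the single knockouts. Without DKO replicate 3, the DKO differences of these 4 genes were -0.03 to 0.01.

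Of the claudins, which seal tight junctions, Cldn5 fell and Cldn3 rose in DKO against Stab2KO. Cldn5, the main claudin of endothelium, measured 11.07, 11.31 and 11.43 in WT, 10.93, 10.93 and 11.12 in Stab1KO, 11.41, 11.49 and 11.36 in Stab2KO, and 11.09, 10.79 and 10.59 in DKO. It was lower in DKO than in Stab2KO (-0.60 ± 0.13, adjusted p = 0.039), with no overlap of the arrays, where 3.42% of all genes and 6 of the 38 markers were called. Against WT it was not called (-0.45 ± 0.13, adjusted p = 0.12). The call was lost without any of 10 arrays, all but WT replicate 1 and DKO replicate 1 (-0.63 to -0.48, adjusted p 0.05 to 0.13). Scaling to pan-endothelial genes gave -0.34 (adjusted p = 0.12). The mean of 10 Kupffer cell markers, relative to all arrays, was -1.14 to -0.72 in Stab2KO and -0.33 to 0.92 in DKO. It was -0.80 to 1.35 in WT and -0.07 to 0.93 in Stab1KO. The part of these cells in the differences of markers from Stab2KO was not tested.

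Cldn3, a claudin of epithelia that endothelium can share, measured 8.02, 7.27 and 7.71 in WT, 7.995, 7.33 and 7.79 in Stab1KO, 7.42, 7.70 and 7.67 in Stab2KO, and 8.93, 8.21 and 8.88 in DKO. Every DKO array lay above every other array. The rise was called against Stab2KO (1.07 ± 0.24, adjusted p = 0.042) and not against WT (1.01 ± 0.24, adjusted p = 0.066) or Stab1KO (0.97 ± 0.24, adjusted p = 0.089). Bile duct epithelium is a source of Cldn3 in liver, and 8 of its 10 listed markers were measured. Their mean lay 0.65 to 0.96 log2 above the mean of all arrays in DKO and between -0.68 and 0.11 in the other genotypes, and 4 of the 8 rose in DKO against WT, Muc1, Sox9, Epcam and Krt19. Of the 8, 2 were called without DKO replicate 3, Muc1 and Cldn4. The part of these cells in the Cldn3 value was not tested. The call against Stab2KO was lost without any of 7 arrays, DKO replicates 1 and 3, WT replicate 3, Stab1KO replicate 3 and each Stab2KO replicate (0.95 to 1.13, adjusted p 0.06 to 0.14).

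**Figure D3:**
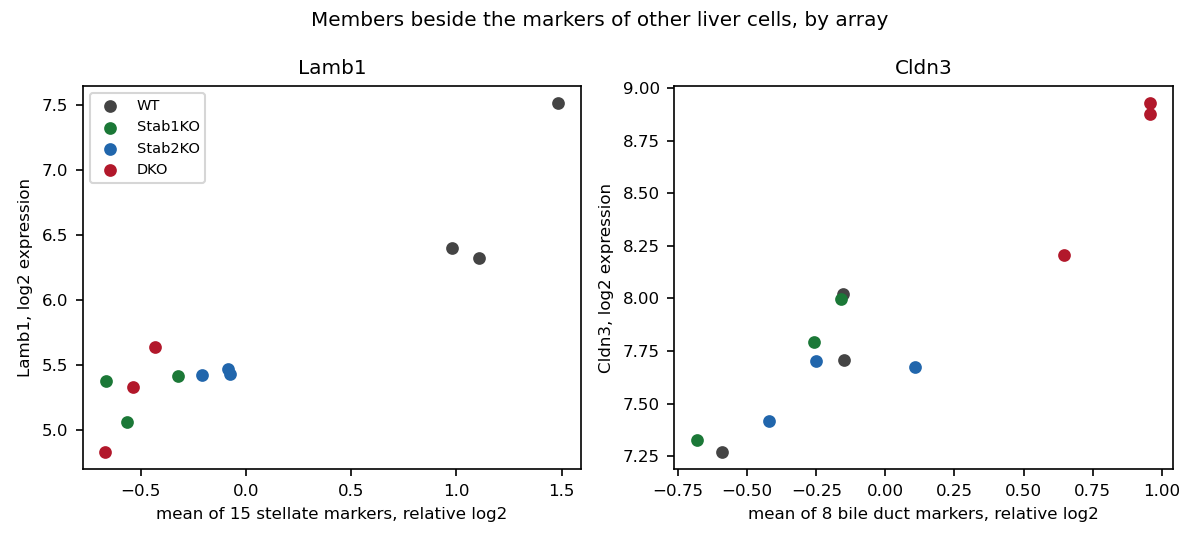
Log2 expression of Lamb1 against the mean of 15 stellate cell markers, and of Cldn3 against the mean of 8 bile duct markers, 1 point for each of 12 arrays, with marker means relative to the mean of all arrays. The 3 WT points lie high on both axes for Lamb1 and the 3 DKO points high on both for Cldn3.

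None of the 8 measured capillary markers was called against WT, and 2 had an unadjusted p under 0.05 in DKO. Aqp1, the water channel of many capillaries, measured 13.46, 13.40 and 13.40 in WT, 13.35, 13.38 and 13.40 in Stab1KO, 13.50, 13.48 and 13.42 in Stab2KO, and 13.26, 13.12 and 13.12 in DKO. The DKO arrays lay below all others. Aqp1 fell in DKO against Stab2KO (-0.30 ± 0.07, adjusted p = 0.037), and the difference from WT of -0.26 ± 0.07 was not called (adjusted p = 0.076). The call against Stab2KO was lost without any of 8 arrays, each WT replicate, Stab1KO replicate 3, Stab2KO replicates 1 and 2 and DKO replicates 2 and 3 (-0.30 to -0.28, adjusted p 0.05 to 0.12). Scaling to pan-endothelial genes left -0.04 (adjusted p = 0.78).

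Cd300lg, a receptor of capillary endothelium also called nepmucin, differed from WT by -0.20 ± 0.09 in DKO, and by -0.09 without DKO replicate 3, without a call. Rgcc, a cell cycle regulator, measured 5.21, 5.22 and 5.63 in WT and 5.57, 6.23 and 6.51 in DKO, a difference of 0.75 ± 0.25 (adjusted p = 0.16) with overlap. Esm1, a proteoglycan of activated and tip endothelium, had the largest spread of the markers, from 8.62 to 10.09 in WT and from 8.26 to 10.47 in Stab2KO. It differed in DKO by 1.02 ± 0.54 (adjusted p = 0.37). Ly6c1, at 3.10 to 3.54 in all arrays, lay near the lowest value of the scale, 2.94, and Apln, Aplnr and Aqp7 lay between 4.22 and 5.72, around the array median of 5.11. No detection calls were used, so a low value is no sign of absence, and these 4 differed from WT by -0.22 to 0.22 in the 3 knockouts.

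All 3 called rises against WT were of large-vessel markers, Gja5 in Stab2KO and DKO and Fbln2 in DKO. Of these 9 genes, 3 were called in DKO against WT, Slco2a1 being lower, where 1.80% of all genes were. In Stab2KO 1 was called, beside 0.296% of all genes. Without DKO replicate 3, only 1 of the 9 was called in DKO against WT, Gja5. The sinusoidal marker Adgrg6 was then called higher too (1.39, adjusted p = 0.037). Gja5, which encodes connexin 40 of arterial gap junctions, measured 6.71, 6.35 and 6.60 in WT, 6.87, 6.77 and 6.64 in Stab1KO, 7.46, 7.29 and 7.25 in Stab2KO, and 7.05, 7.37 and 7.14 in DKO. All 6 arrays without Stab2 lay above all 6 with it. Gja5 rose in Stab2KO to 171% of WT (0.78 ± 0.12, interval 0.52 to 1.04, adjusted p = 0.023) and in DKO to 155% (0.63 ± 0.12, interval 0.37 to 0.89, adjusted p = 0.027). In Stab1KO the difference was 0.20 ± 0.12 (adjusted p = 1), and the departure from additivity was not called. In Stab2KO the call was lost without WT replicate 2 or 3 or Stab2KO replicate 1 or 2 (0.68 to 0.80, adjusted p 0.085 to 0.11), and in DKO without WT replicate 2 or 3 or DKO replicate 2 (0.53 to 0.65, adjusted p 0.063 to 0.11). The Stab2KO call also ended when scaled to pan-endothelial genes (0.69, adjusted p = 0.09).

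Fbln2, an extracellular matrix protein of large vessels, measured 8.79, 7.37 and 8.05 in WT, 8.74, 9.21 and 8.98 in Stab1KO, 9.38, 9.33 and 9.29 in Stab2KO, and 9.49, 9.51 and 9.40 in DKO. Stab2KO and DKO were close to each other, all Stab1KO arrays lay below them, and the WT pools spread widely. All Stab2KO and DKO arrays lay above every WT array, while Stab1KO replicate 1 lay just under WT replicate 1. The rise was called in DKO (1.40 ± 0.27, 263% of WT, adjusted p = 0.033), and the differences of 1.26 ± 0.27 in Stab2KO (adjusted p = 0.13) and 0.90 ± 0.27 in Stab1KO (adjusted p = 0.81) were not. The call in DKO was lost without any of 8 arrays, WT replicates 2 and 3, Stab1KO replicate 3, Stab2KO replicates 1 and 2 and each DKO replicate (1.04 to 1.43, adjusted p 0.052 to 0.10). Without WT replicate 1 all 3 knockouts were called, with 1.27 in Stab1KO (adjusted p = 0.026) and 1.62 in Stab2KO (adjusted p = 0.01). Portal fibroblasts also make this protein, and the mean of 10 smooth muscle and portal fibroblast markers, relative to all arrays, was -0.27 to -0.23 in WT, -0.30 to -0.11 in Stab1KO, -0.12 to 0.48 in Stab2KO and 0.05 to 0.60 in DKO. The part of those cells in the Fbln2 and Gja5 values was not tested.

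Slco2a1, a prostaglandin transporter, fell. It measured 12.48, 12.49 and 12.42 in WT, 12.42, 12.37 and 12.56 in Stab1KO, 12.27, 12.29 and 12.12 in Stab2KO, and 11.75, 12.17 and 11.51 in DKO. The DKO arrays lay below all WT and Stab1KO arrays, and DKO replicate 2 lay within the range of Stab2KO. The fall in DKO was -0.66 ± 0.14, to 63.4% of WT (adjusted p = 0.045). It was lost without any of 10 arrays, all but Stab2KO replicate 3 and DKO replicate 2 (-0.68 to -0.51, adjusted p 0.059 to 0.16).

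The ephrins and their receptor, which set arterial against venous identity, gave 1 call in 7 contrasts. Ephb4, the venous receptor, measured 11.40, 11.28 and 11.35 in WT, 11.41, 11.37 and 11.45 in Stab1KO, 11.55, 11.55 and 11.51 in Stab2KO, and 11.21, 11.29 and 10.91 in DKO. It was lower in DKO than in Stab2KO without overlap (-0.40 ± 0.09, adjusted p = 0.046), a call lost without any of 11 arrays, all but DKO replicate 2 (-0.44 to -0.29, adjusted p 0.06 to 0.14). Scaling to pan-endothelial genes left -0.14 (adjusted p = 0.26). The arterial ligand Efnb2 differed by 0.37 ± 0.21 in DKO (adjusted p = 0.40), and by 0.59 without DKO replicate 3 (adjusted p = 0.14). Efnb1 lay above WT in all Stab2KO and DKO arrays, by 0.42 ± 0.10 (adjusted p = 0.21) and 0.29 ± 0.10 (adjusted p = 0.19), neither called. Gja4, the connexin 37 of arterial endothelium, lay lower in all 3 DKO arrays than in WT, by -0.57 ± 0.19 (adjusted p = 0.17). Gja1, connexin 43, differed by 0.01 ± 0.22 (0.28 without DKO replicate 3) and Ltbp3, a binding protein of latent TGF-beta, by 0.11 ± 0.21 (0.05 without it).

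**Figure D4:**
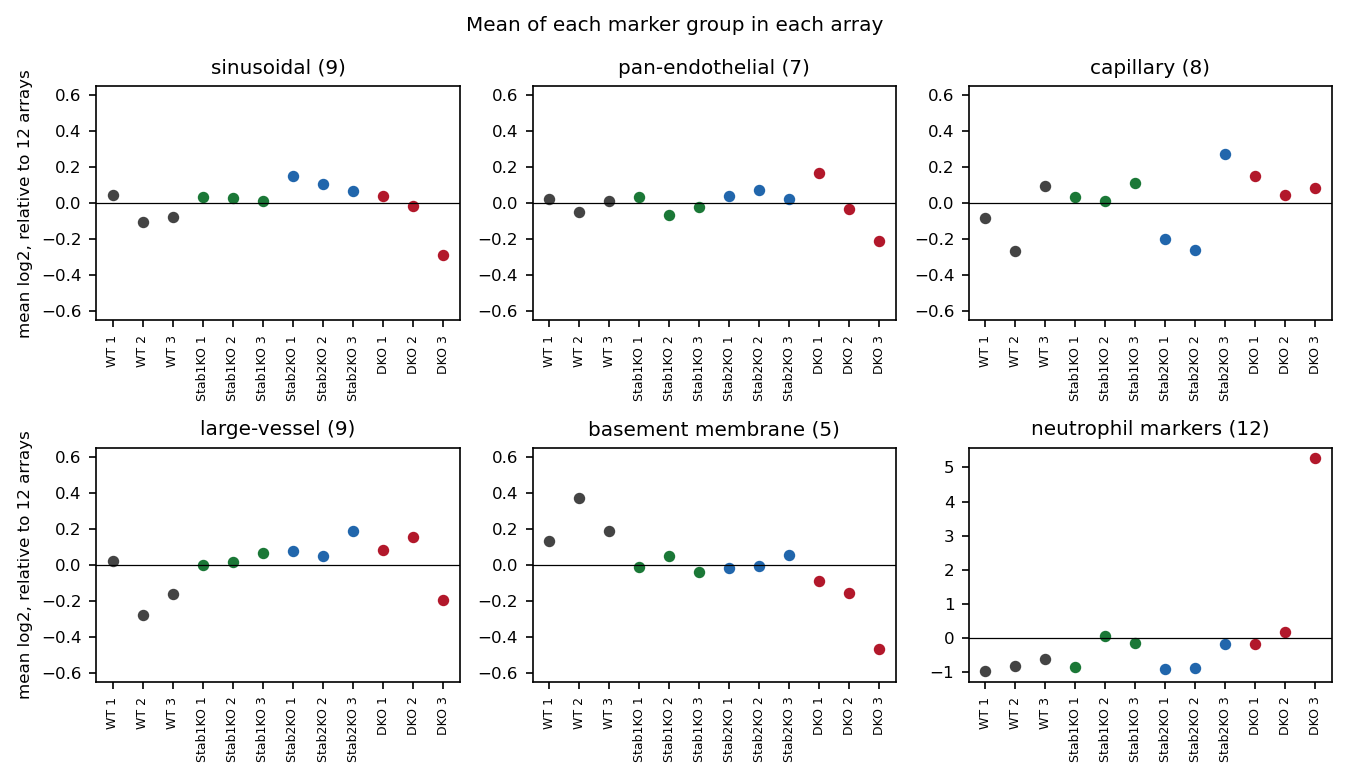
Mean log2 value of each marker group in each of the 12 arrays, relative to the mean over all arrays, with 12 neutrophil markers for comparison on a wider axis. DKO replicate 3 is lowest for the sinusoidal, pan-endothelial and basement membrane groups and stands at 5.27 for the neutrophil markers.

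Of the 5 measured basement membrane markers 2 fell in DKO against WT, and all 5 lay below WT with a median of -0.34 (3 of 5 and -0.16 when scaled to pan-endothelial genes). Without DKO replicate 3, 0 of the 5 were called, 3 lay below WT and the median was -0.19. Lamb1, the laminin beta-1 chain, measured 6.40, 7.51 and 6.33 in WT, 5.42, 5.38 and 5.06 in Stab1KO, 5.43, 5.47 and 5.43 in Stab2KO, and 5.64, 4.84 and 5.34 in DKO. Every knockout array lay below every WT array, and WT replicate 2 stood highest of all. The difference was -1.48 ± 0.29 in DKO, to 36.0% of WT (adjusted p = 0.034), and -1.46 ± 0.29 in Stab1KO (adjusted p = 0.12) and -1.31 ± 0.29 in Stab2KO (adjusted p = 0.16), which were not called. The mean of 15 stellate cell markers, genes of the pericytes of the sinusoid, lay 0.98 to 1.49 above the mean of all arrays in WT and from -0.67 to -0.08 relative to it in the knockouts, and 8 of the 15 fell in Stab1KO, 7 in Stab2KO and 9 in DKO. The part of stellate cells in the Lamb1 value was not tested. The DKO call was lost without WT replicate 2 or 3, Stab2KO replicate 1 or 2, or DKO replicate 2 or 3 (-1.69 to -1.09, adjusted p 0.052 to 0.075).

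Nid2, which with its relative nidogen-1 links laminin to collagen IV, fell in DKO and was not called in the single knockouts. It measured 7.10, 7.22 and 7.33 in WT, 7.14, 7.33 and 7.31 in Stab1KO, 7.45, 7.36 and 7.65 in Stab2KO, and 6.70, 6.81 and 6.58 in DKO. All 3 DKO arrays lay below all 9 others. The fall was -0.52 ± 0.10 against WT (adjusted p = 0.035), -0.56 ± 0.10 against Stab1KO (adjusted p = 0.035) and -0.79 ± 0.10 against Stab2KO (58.0%, adjusted p = 0.0085). Against Stab1KO, 2 of the 38 markers were called, Fam167b and Nid2, where 0.945% of all genes were. In Stab2KO the level was 0.27 ± 0.10 above WT (adjusted p = 0.54), and the departure from additivity was -0.83 ± 0.15, not called (adjusted p = 0.073). Nid2 lies within 20 Mb of Stab1, as does Mmrn2 of the pan-endothelial markers. The call against Stab2KO held with any one array left out (-0.73 without DKO replicate 3, adjusted p = 0.013), that against WT was lost without any of 7 arrays, each WT replicate, Stab1KO replicate 3, Stab2KO replicate 1 and DKO replicates 1 and 3 (-0.57 to -0.46, adjusted p 0.052 to 0.13) and that against Stab1KO without any of 8, WT replicates 2 and 3, Stab1KO replicates 2 and 3, Stab2KO replicates 1 and 2 and DKO replicates 1 and 3 (-0.56 to -0.50, adjusted p 0.05 to 0.14). Scaling to pan-endothelial genes kept the call against Stab2KO (-0.53, adjusted p = 0.029) and ended that against Stab1KO (-0.34, adjusted p = 0.16).

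The remaining basement membrane genes were not called. Nid1 measured 11.30, 11.41 and 11.43 in WT and 11.12, 11.26 and 10.75 in DKO, a difference of -0.34 ± 0.12 (adjusted p = 0.18) without overlap, which was -0.19 without DKO replicate 3. The laminin chains Lama4 and Lamc1 differed in DKO by -0.02 ± 0.15 and -0.01 ± 0.15, and lay 0.20 and 0.18 above WT without DKO replicate 3.

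Across all 38 markers, 15 did not overlap between DKO and WT arrays, 5 higher and 10 lower, where 24.0% of all genes did not overlap, 8.97% higher and 15% lower. For Stab2KO 10 of 38 did not overlap, beside 15.7% of all genes, and for Stab1KO 1, Lamb1, beside 10.1%. The medians of the 29 other endothelial markers were 0.05 in Stab1KO, 0.05 in Stab2KO and -0.07 in DKO, and the last was 0.01 without DKO replicate 3 and 0.10 when scaled to 8 pan-endothelial genes. With that array left out, 3 markers were called in DKO against WT, Fam167b, Adgrg6 and Gja5. No marker was called in Stab2KO against Stab1KO, where 0.108% of all genes were and 4 of 38 markers had an unadjusted p under 0.05. None was called for the departure from additivity either, where 0.050% of all genes were and 8 markers had an unadjusted p under 0.05.

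Further genes of the same kinds were read from lists beyond the markers. No gene of the 5 lists was called in Stab1KO or Stab2KO against WT, where 0 to 4 and 0 to 6 genes a list had an unadjusted p under 0.05. The largest differences over the 5 lists were -0.94 for Epha7 in Stab1KO (adjusted p = 0.14) and 0.77 for Vegfc in Stab2KO (adjusted p = 0.46). In DKO against WT, 1 of 16 further sinusoidal genes was called, Plxnc1, which encodes a semaphorin receptor (-0.66 ± 0.13, adjusted p = 0.034). Without DKO replicate 3 it stayed called at -0.48 (adjusted p = 0.019). Of the 16 genes, 15 lay below WT with a median of -0.27 (10 of 16 and -0.10 when scaled). Leaving out DKO replicate 3 gave 13 of 16 below WT and a median of -0.15. The Plxnc1 call was lost without any WT replicate, Stab1KO replicate 3 or Stab2KO replicate 1 or 2 (-0.68 to -0.64, adjusted p 0.052 to 0.13). Wnt2, a signal that LSECs send to hepatocytes, fell in DKO against Stab1KO (-0.77 ± 0.15, adjusted p = 0.045) and against Stab2KO (-0.78 ± 0.15, adjusted p = 0.029). Against WT it was not called (-0.67, adjusted p = 0.056, and -0.50, adjusted p = 0.09 without DKO replicate 3). The call against Stab2KO was lost without Stab2KO replicate 1 or 2 (-0.72 to -0.70, adjusted p 0.10 to 0.11), and that against Stab1KO without any of 10 arrays, all but Stab2KO replicate 3 and DKO replicate 2 (-0.85 to -0.61, adjusted p 0.054 to 0.18).

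Of 22 further genes of continuous endothelium, 3 were called in DKO against WT, all higher, and the median was -0.04. Leaving out DKO replicate 3 gave 5 called, Jag1 and Sele being added, and a median of 0.06. Scaling to pan-endothelial genes called the same 5, with a median of 0.13. All 8 scaling genes are on this list, though none is among the 5. The scaled median of the list was therefore in part fixed by the scaling. Cd34, a sialomucin of continuous capillaries, measured 8.92, 8.39 and 8.58 in WT, 9.16, 8.85 and 8.98 in Stab1KO, 9.23, 9.25 and 9.30 in Stab2KO, and 9.65, 9.49 and 9.53 in DKO. It rose in DKO by 0.93 ± 0.13 (adjusted p = 0.0057). Selp, the adhesion receptor P-selectin, rose by 1.57 ± 0.27 (adjusted p = 0.019) and Vegfc, a lymphangiogenic growth factor, by 1.36 ± 0.25 (adjusted p = 0.027). Each of the 3 had all DKO arrays above all WT arrays. The Cd34 call held with any one array left out. Those of Selp (1.31 to 1.54, adjusted p 0.052 to 0.076) and Vegfc (1.15 to 1.42, adjusted p 0.05 to 0.11) were lost without WT replicate 2 or 3 or DKO replicate 1 or 2. Icam2, on the same list, fell in DKO against Stab2KO, a call lost without any Stab2KO replicate (-0.72 to -0.64, adjusted p 0.053 to 0.095). Scaling, for which Icam2 is itself a reference gene, gave -0.43 (adjusted p = 0.025). Against WT the Icam2 difference was -0.30 (adjusted p = 0.29), not called. Of 5 measured lymphatic endothelial markers, Prox1 (1.06, adjusted p = 0.042) and Mmrn1 (1.90, adjusted p = 0.032) rose in DKO against WT, and Reln, also on the stellate list, fell. Without DKO replicate 3, Prox1 stayed called (1.19, adjusted p = 0.033) and Mmrn1 did not (1.635, adjusted p = 0.064). The mean of the 5, relative to all arrays, was -0.11 to 0.46 in DKO and -0.56 to 0.20 elsewhere, and that of 7 mesothelial markers was 0.23 to 0.45 in DKO and -0.46 to 0.20 elsewhere. The smooth muscle and portal fibroblast markers are given beside Fbln2. The part of these cells in the 3 rises was not tested.

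Of 12 further basement membrane genes 1 was called in DKO against WT, and 2 without DKO replicate 3, Agrn being added higher (0.78, adjusted p = 0.003). Lama1 fell in DKO (-0.97 ± 0.17, adjusted p = 0.019; -0.96, adjusted p = 0.051 without DKO replicate 1, and -0.79, adjusted p = 0.054 when scaled), beside differences of -0.82 in Stab1KO and -0.68 in Stab2KO that were not called. The stellate markers named beside Lamb1 were lower in the same groups, and their part in it was not tested. None of 13 further Eph receptors and ephrins was called in DKO, the largest difference being 0.55 for Epha4 (adjusted p = 0.33). Of 13 further tight and gap junction genes, Ocln rose (0.96 ± 0.19, adjusted p = 0.034) and Jam3 fell (-0.74 ± 0.16, adjusted p = 0.045). Without DKO replicate 3 neither was called (0.90, adjusted p = 0.07, and -0.62, adjusted p = 0.093) and Cldn4 was (2.26, adjusted p = 0.028). The Ocln call was also lost without any WT replicate, Stab1KO replicate 3, Stab2KO replicates 1 and 2 or DKO replicates 1 and 2 (0.82 to 1.06), and that of Jam3 without any WT replicate, Stab1KO replicate 1, Stab2KO replicates 1 and 2 or DKO replicate 1 (-0.82 to -0.62). The Jam3 call also ended when scaled (-0.56, adjusted p = 0.074). Ocln was also called higher in DKO against Stab1KO and against Stab2KO, calls lost without any of 8 and any of 2 arrays. Jam3 was also called lower in DKO against Stab2KO. That call was lost without any of 6 arrays and when scaled (-0.49, adjusted p = 0.066). Ocln encodes occludin of epithelial and endothelial tight junctions and was higher in the arrays where the bile duct markers were, whose part in it was not tested.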

How the data were processed

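The authors deposited log2 values with 1 entry for each identifier in each array, and RMA is named per the submitters' processing notes. The genome build is not given in the sources used here. Of 24973 identifiers, 24015 had 1 symbol in the platform annotation, 0 had several and 958 had none listed; 4 lower-mean duplicates were left out, which gave 24011 genes tested. One limma 3.58.1 model in R 4.3.3 with 4 group means over 12 arrays tested 7 contrasts with Benjamini-Hochberg adjustment over all genes. Calls are at an adjusted p below 0.05. It was checked on simulated data. The number of pools limits the precision. The labels name each pool a biological replicate. Whether the replicate numbers pair the arrays was not settled, and the main model left them out. The members, lists, motifs and tests were chosen with earlier results of these data known. Every marker is accounted for, with values per array for those called, and up to 4 called genes, or the 1 with the largest difference, were named per further list. Alternatives were a replicate block, a filter at the 40th percentile of gene means, eBayes trend and robust options, array weights, quantile normalization, every identifier tested, the 6 arrays compared only and each array left out; scaling to 8 pan-endothelial genes (Pecam1, Tie1, Tek, Eng, Icam2, Esam, Robo4, Ecscr) was added after seeing the data.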

Additional observations from a re-analysis of the deposited data

How the results depend on the processing

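Over 300 alternative values of the 15 calls of a marker in a contrast, 183 stayed past the threshold, 117 did not and 0 turned in sign. Apart from the fits on only the 6 arrays compared, 2 calls held in every alternative, Fam167b in DKO against WT and Nid2 in DKO against Stab2KO.

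With only the 6 arrays compared, 0 markers were called in any comparison that had calls. Scaling to 8 pan-endothelial genes gave, for the sinusoidal markers, 2 in DKO against WT, Adgrg6 being added, and 0 against either single knockout. For the others it gave 0 in Stab2KO against WT, 3 in DKO against WT, 3 against Stab1KO and 2 against Stab2KO. With the replicate block, 2 sinusoidal markers were called in DKO against WT and 3 others in DKO against Stab2KO, beside 5. The block ended the calls of Slco2a1 in DKO against WT (adjusted p = 0.052) and of Aqp1 (0.052), Ephb4 (0.063) and Cldn5 (0.064) in DKO against Stab2KO. The 40th percentile filter gave 2 sinusoidal markers in DKO against WT. Array weights gave 2 sinusoidal markers there, 2 others in Stab2KO against WT and 1 other, Nid2, in the departure from additivity. The causes were not tested, except that the 6-array fits hold fewer samples. Leaving out 1 array gave, for the other markers, 0 to 1 calls in Stab1KO against WT (Fbln2 without WT replicate 1), 0 to 2 in Stab2KO against WT, 0 to 5 in DKO against WT, 0 to 2 in DKO against Stab1KO and 1 to 4 in DKO against Stab2KO. For the sinusoidal markers it gave 1 to 2 in DKO against WT and 0 to 1 against each single knockout. Whether the replicate numbers pair the arrays was not settled by the values. Of 18 same-number pairs 4 correlated over 0.1 (-0.06 to 0.29), and the other pairs gave -0.27 to 0.21. Of the 12 arrays, 7 correlated best with their own number. With the replicate block 508 genes were called in DKO against WT, beside 432 without it.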
